A study of Homo sapiens with 9 samples.

Results

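Expression of 41 genes of DNA replication and the surrounding S phase machinery was followed in Huh7 cells, an established human hepatocellular carcinoma line, after exposure to PGG, a gallotannin made of glucose esterified with gallic acid. The genes were taken from a list of replication factors, and each was represented by the probe sets that the array's annotation assigned to that symbol and no other. All 41 were measured, by 82 probe sets, out of 19775 genes with such a probe set in the data. Affymetrix arrays were run on 3 samples treated with PGG at 0.1 mg/mL for 6 hours, 3 given the same dose for 48 hours and 3 given the solvent, PBS, for 48 hours. The groups are called PGG 6 h, PGG 48 h and PBS. In the sample titles the 3 arrays of each group are biological replicates. All cells were of this 1 line, so the p-values measure the spread between these samples. For the PBS arrays the titles give 48 hours of PBS, which is used here, whereas their descriptions give 0 hours of PGG. No PBS sample of 6 hours was analysed here, so PGG for 6 hours and the shorter time after treatment cannot be told apart in the comparison of PGG 6 h with PBS.

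Chromosomal replication starts at origins bound by the origin recognition complex, on which CDC6 and CDT1 load the ring-shaped MCM helicase before S phase. CDC45 and the GINS complex then join the ring and turn it into an active helicase. Polymerases and the sliding clamp PCNA copy the strands, ribonucleotide reductase and thymidylate synthase supply the deoxynucleotides, and histone chaperones package the new DNA. Many of these genes are transcribed at the G1/S boundary by E2F factors, which the retinoblastoma protein holds back in resting cells.

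The promoters below show the E2F words of the set, for the 4 genes with such a word that rose the most at 6 hours and for ORC2, the gene that fell. Promoters, 250 bases before to 50 after the transcription start, were taken from RefSeq on build GRCh38.p14 and matched by symbol for 38 of the 41 genes (not MCM4, MCM5 or GINS4). They numbered 49, because 8 genes had several. The search used 4 E2F words (TTTCCCGC, TTTCGCGC, TTTGCCGC and TTTGGCGC), the E-box CACGTG and the word CCAAT, on both strands. An E2F word stood in a promoter of 21 of the 38 genes (55.3%), and in 5.4% of measured genes and 4.0% of all genes of the RefSeq table. Counted by promoter, the shares were 44.9%, 4.1% and 3.3%. CCAAT stood in a promoter of 68.4% of the 38 genes, against 41.7% of measured genes and 39.7% of all genes (67.3%, 34.5% and 34.6% by promoter). The E-box stood in 13.2%, against 10.9% and 8.8% (10.2%, 8.4% and 7.3% by promoter). These are matches of letters and not measured binding. The sequences run 5′ to 3′ along the gene, with the E2F word in capitals, for DTL (chr1:212035498-212035797, plus strand), UHRF1 (chr19:4909251-4909550, plus strand, 1 of its 3 promoters), CDT1 (chr16:88803539-88803838, plus strand), GINS2 (chr16:85688905-85689204, minus strand) and ORC2 (chr2:200963611-200963910, minus strand), which holds none of the 4 words.
DTL: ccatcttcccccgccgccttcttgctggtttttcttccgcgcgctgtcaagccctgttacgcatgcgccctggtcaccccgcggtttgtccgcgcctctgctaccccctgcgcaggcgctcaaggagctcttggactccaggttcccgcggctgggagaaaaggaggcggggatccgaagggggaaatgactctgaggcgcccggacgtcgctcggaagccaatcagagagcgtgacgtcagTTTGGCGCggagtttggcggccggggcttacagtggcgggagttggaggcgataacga
UHRF1: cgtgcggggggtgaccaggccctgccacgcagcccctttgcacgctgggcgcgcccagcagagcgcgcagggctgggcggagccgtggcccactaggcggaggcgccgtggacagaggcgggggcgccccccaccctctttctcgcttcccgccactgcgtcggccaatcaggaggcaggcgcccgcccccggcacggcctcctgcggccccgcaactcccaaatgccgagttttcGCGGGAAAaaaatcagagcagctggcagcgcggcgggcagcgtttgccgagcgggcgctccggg
CDT1: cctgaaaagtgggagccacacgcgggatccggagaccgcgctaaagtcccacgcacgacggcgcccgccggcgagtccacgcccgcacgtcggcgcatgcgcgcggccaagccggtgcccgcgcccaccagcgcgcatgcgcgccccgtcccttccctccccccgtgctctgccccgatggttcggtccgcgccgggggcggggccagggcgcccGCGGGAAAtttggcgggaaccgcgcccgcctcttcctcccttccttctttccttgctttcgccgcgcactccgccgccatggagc
GINS2: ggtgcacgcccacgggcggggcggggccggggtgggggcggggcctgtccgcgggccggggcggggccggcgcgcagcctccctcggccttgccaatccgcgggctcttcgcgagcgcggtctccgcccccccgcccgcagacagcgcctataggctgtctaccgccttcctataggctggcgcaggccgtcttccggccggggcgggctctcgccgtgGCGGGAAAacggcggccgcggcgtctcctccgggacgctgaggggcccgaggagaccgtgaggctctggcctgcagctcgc
ORC2: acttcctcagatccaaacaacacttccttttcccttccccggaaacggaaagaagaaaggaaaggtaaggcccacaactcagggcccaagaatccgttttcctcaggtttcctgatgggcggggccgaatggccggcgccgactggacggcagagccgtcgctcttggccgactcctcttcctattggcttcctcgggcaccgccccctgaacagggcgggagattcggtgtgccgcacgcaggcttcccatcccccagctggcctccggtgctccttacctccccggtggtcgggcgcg

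The first base of the E2F match, counted along the gene, lay at -8 from the start in DTL, -14 in UHRF1, -35 in CDT1 and -31 in GINS2. The word read along the gene in DTL and on the opposite strand in the other 3. RRM2 and MCM10, which had the largest differences at 6 hours, held none of the 4 words in this window, and MCM6 held 4 matches in overlapping pairs. Among the 21 genes with an E2F word the median log2 difference from PBS was 0.60 at 6 hours and -0.66 at 48 hours, and among the 17 without one it was 0.76 and -0.19. The spans were wide in both sets, from -2.78 to 1.09 at 48 hours with the word and from -1.69 to 0.89 without it.

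**Figure D1:**
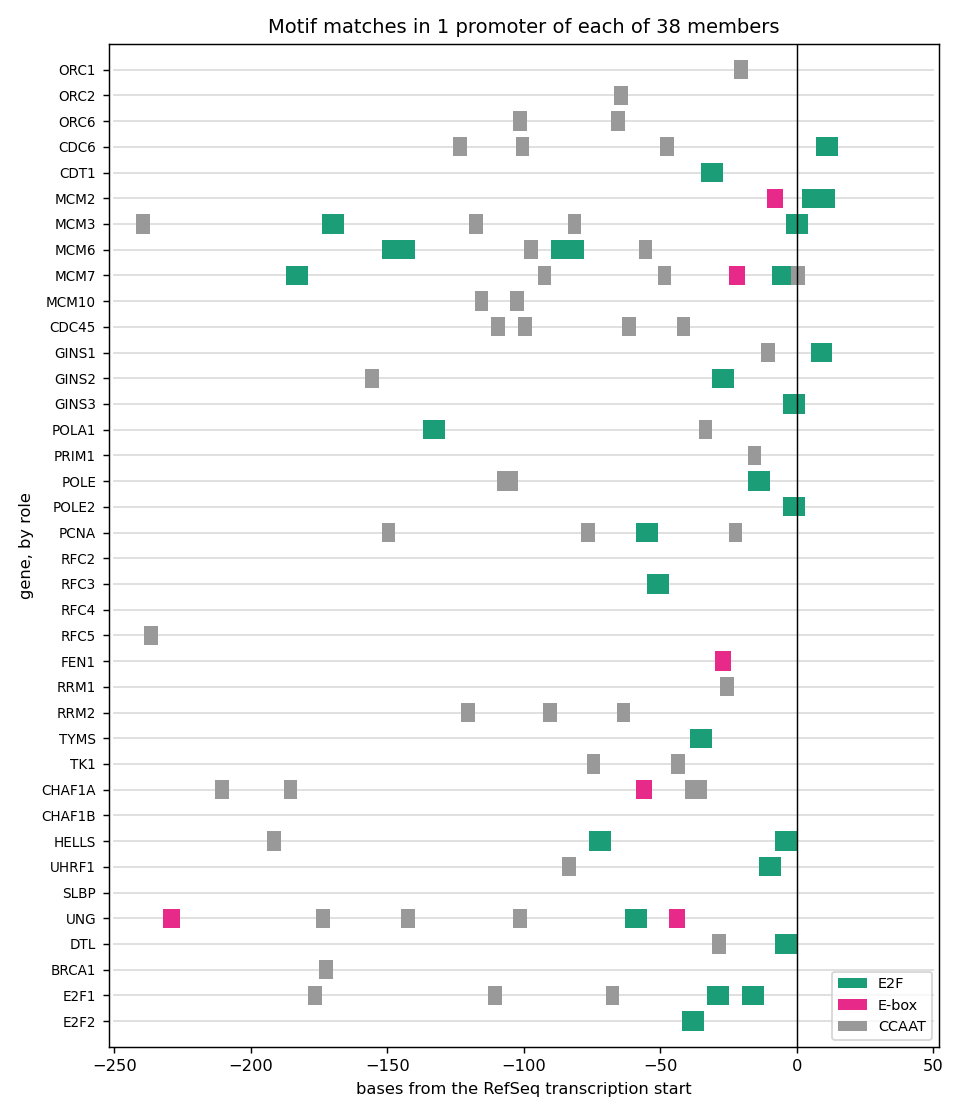
Position of the E2F, E-box and CCAAT words in 1 promoter of each of the 38 genes, with the distance from the RefSeq transcription start in bases on the x axis and the genes by role on the y axis. Boxes mark the length of a match on either strand, and most E2F boxes lie close to the start. For genes with several promoters, 1 with an E2F word was drawn where any held it. Another UHRF1 promoter, with an E2F match at -160, is not drawn.

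The authors deposited log2 signals from RMA, and differences between groups are given on that log2 scale, ± the standard error (SE) from limma fitted over all 19775 genes, with Benjamini-Hochberg adjusted p-values. A gene is said to have risen or fallen where the adjusted p was under 0.05. For each gene the probe set of highest mean signal stands, and all 41 of these lay above the median of all probe sets (5.18). Array medians were 5.17 to 5.20, and arrays of a group correlated at 0.993 to 0.998. RNA quality was read from the control probes of ACTB, as the log2 signal at the 3′ end minus that at the 5′ end. This measure was 1.17 ± 0.053 in PGG 6 h, 2.95 ± 0.97 in PGG 48 h and 1.35 ± 0.34 in PBS (SD, n = 3 each). It was highest, at 4.03, in PGG 48 h replicate 2. The same measure from the control probes of GAPDH was 0.22 ± 0.029 in PGG 6 h, 0.83 ± 0.87 in PGG 48 h and 0.26 ± 0.12 in PBS. It was highest, at 1.83, on the same array. Liver markers were measured for 10 of 11 listed genes, all above that median, with array means of 11.8 to 11.9 in PGG 6 h, 11.5 in PGG 48 h and 11.5 to 11.6 in PBS. Of the markers of other cell types, the fibroblast list (3 of 6 above the median) had array means of 4.93 to 5.04 in PGG 6 h, 5.46 to 5.53 in PGG 48 h and 4.95 to 5.0 in PBS. Its member LUM averaged 3.0, 6.19 and 2.93 in these groups. The endothelial list (2 of 5) had 4.52 to 4.59 in PGG 6 h, 4.57 to 4.67 in PGG 48 h and 4.47 to 4.56 in PBS. The leukocyte list (3 of 4) had 6.57 to 6.64, 6.29 to 6.42 and 6.8 to 6.86, and its defining antigen PTPRC averaged 3.3 to 3.38. In PGG 6 h, PGG 48 h and PBS its member LYZ averaged 12.13, 11.96 and 12.14. In the same order CD14 averaged 5.35, 4.78 and 6.16, and CD3E 5.52, 5.38 and 5.68. The part of these shifts and of RNA quality in the results was not tested.

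At 6 hours most of the replication genes were higher than in PBS. With PGG 6 h, 35 of the 41 rose, by 0.23 to 2.23, and 1 fell, ORC2. Over all genes 17.2% rose and 16.9% fell. The median over the 41 was 0.66, against 0.01 over all genes. RRM2, the small subunit of ribonucleotide reductase, rose by 2.23 ± 0.093 (adjusted p = 1.2e-08), which is 4.69-fold. MCM10, a helicase activator, rose by 1.57 ± 0.086 (adjusted p = 8.0e-08). The 5 that did not pass were ORC6, MCM3, HELLS, UNG and BRCA1, with differences of -0.013 to 0.21. At a log2 difference beyond 1.5 with an adjusted p under 0.005, cut-offs like those in the methods of the study, 2 were higher (RRM2 and MCM10) and 1 lower (ORC2), where 0.349% and 0.541% of all genes were. On single arrays the median of the 41 genes lay 0.66, 0.69 and 0.71 above the PBS mean in PGG 6 h, and between -0.003 and 0.033 in PBS.

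At 48 hours most were lower than in PBS. With PGG 48 h, 27 of the 41 fell, with log2 differences of -2.78 to -0.24, and 8 rose, by 0.20 to 1.09. Over all genes 24.3% fell and 23.9% rose, so the share of the 41 that rose (19.5%) was below that over all genes. The median over the 41 was -0.47, against -0.02 over all genes. HELLS, a chromatin remodeller of replicating cells, had the largest fall, at -2.78 ± 0.11 (adjusted p = 8.2e-10), which is 6.85-fold lower. Of its 5 probe sets 4 fell and 1 rose. The 8 that rose were ORC1, MCM2, RFC2, FEN1, SLBP, E2F1 and, each by 1 of its 2 probe sets, CDT1 and RRM2. The other probe set of CDT1 did not pass, and that of RRM2 fell. The 6 that did not pass were ORC6, CDC6, MCM5, RFC4, RFC5 and TK1. Beyond 1.5 with an adjusted p under 0.005, 4 were lower (ORC2, GINS1, POLA1 and HELLS) and 0 higher, where 2.12% and 3.08% of all genes were. On single arrays the median of the 41 lay at -0.47, -0.51 and -0.46 against the PBS mean in PGG 48 h, on which the ACTB measure was 2.14, 4.03 and 2.67. Without PGG 48 h replicate 2, which stood apart by that measure, 26 fell and 8 rose. The other PGG 48 h arrays still lay above the PBS arrays by the ACTB measure (0.96, 1.57 and 1.51 in PBS). By the GAPDH measure they lay within or near the PBS arrays. That measure was 0.27, 1.83 and 0.39 in PGG 48 h and 0.13, 0.35 and 0.31 in PBS. RNA quality as read by ACTB and the treatment of this group thus cannot be told apart by leaving out replicate 2. In RNA from whole cultures, fewer cells in S phase and less of these RNAs per cell cannot be told apart.

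Set directly against PGG 6 h, PGG 48 h had lower signals for 37 of the 41 genes, with log2 differences of -2.90 to -0.31 (adjusted p from 5.7e-10 to 2.4e-03). Over all genes 23.4% fell and 23.6% rose. The median over the 41 was -1.23, against -0.01 over all genes. In limma's test of this comparison 0 of the 41 rose, and 0 at an unadjusted p under 0.05. E2F1 rose when only these groups entered the fit (adjusted p = 4.5e-02). The 4 that did not pass were ORC2 (-0.16 ± 0.078), ORC6 (0.037 ± 0.093), CDT1 (0.037 ± 0.066) and E2F1 (0.15 ± 0.098). For ORC2 this depended on the probe set, since its second one fell (-0.74, adjusted p = 6.8e-05 over all probe sets), as did the mean of both (-0.45, adjusted p = 2.1e-04). Beyond -1.5 with an adjusted p under 0.005, 12 were lower, where 1.55% of all genes were, and 0 higher, where 2.53% were. PGG 48 h also had the longer time in culture, which cannot be told apart from the longer exposure. The comparisons of each time with PBS share the same 3 PBS arrays, and this one shares its arrays with both.

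**Figure D2:**
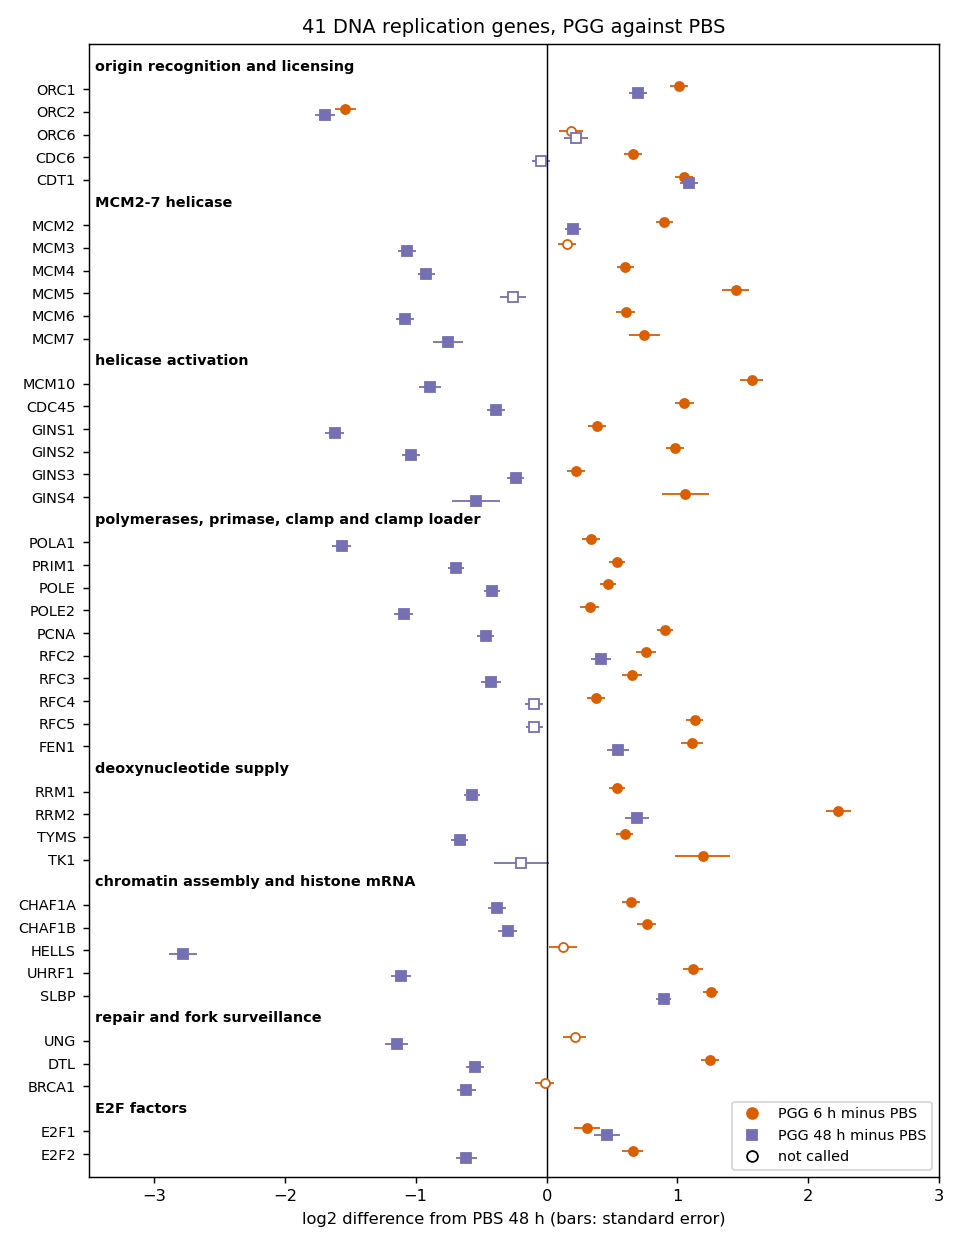
Log2 differences of the 41 genes from PBS, by role, for PGG 6 h (circles) and PGG 48 h (squares), with the standard error from limma as bars and open symbols for genes that did not pass an adjusted p of 0.05. Most circles lie right of 0 and most squares left of it, with RRM2 the highest circle, at 2.23, and HELLS the lowest square, at -2.78.

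**Figure D3:**
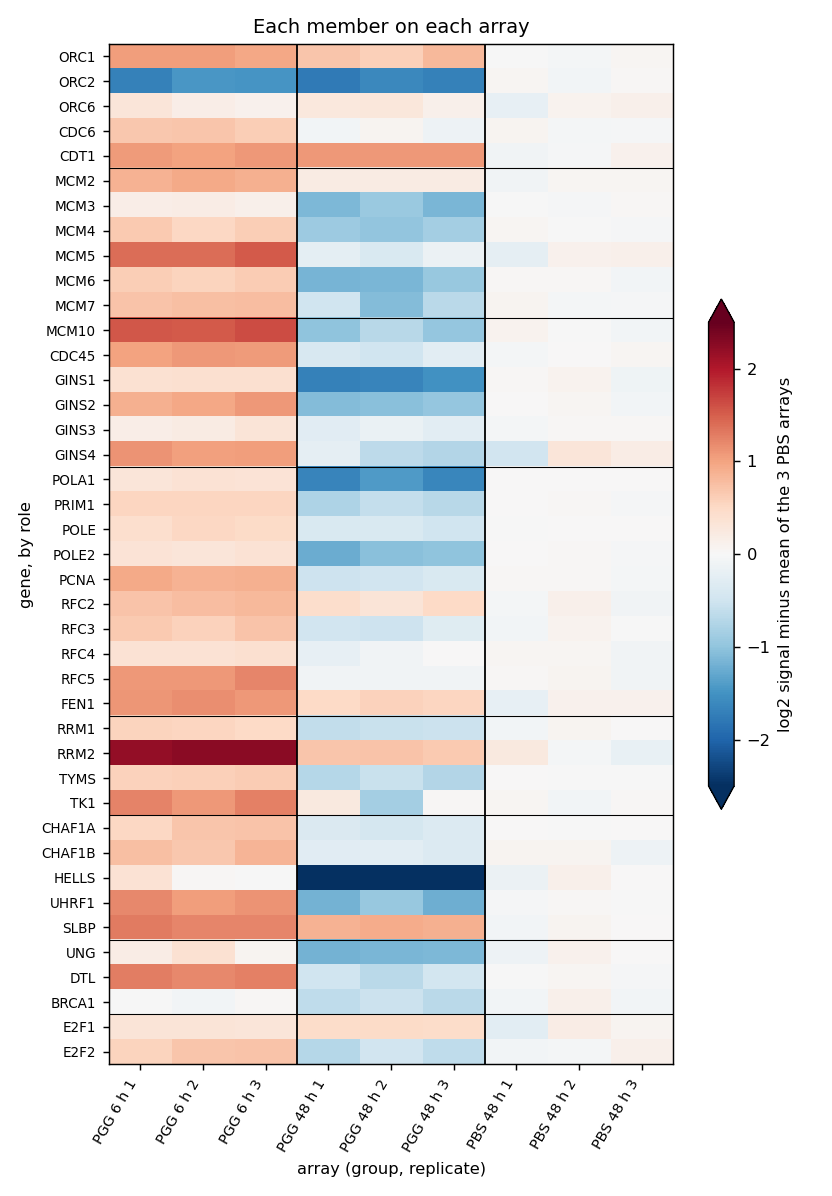
Log2 signal of each gene on each of the 9 arrays minus its mean over the 3 PBS arrays, genes by role in rows and arrays by group in columns, with the colour scale on the right ending at -2.5 and 2.5. The PGG 6 h arrays are mostly above the PBS mean and the PGG 48 h arrays mostly below it, and TK1 and MCM7 are lowest on PGG 48 h replicate 2.

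Of 5 origin recognition and licensing factors, 3 rose and 1 fell at 6 hours (median 0.66), and 2 rose and 1 fell at 48 hours (median 0.22). Over all genes 17.2% rose and 16.9% fell at 6 hours, and 23.9% rose and 24.3% fell at 48 hours. The falls of this group (20% at each time) were near those shares. So were the rises at 48 hours in later groups, namely polymerases and clamp genes (20%), deoxynucleotide supply (25%) and chromatin assembly (20%). ORC1, the subunit that binds nucleotide and recruits CDC6, had log2 signals of 7.78, 7.78 and 7.7 in PGG 6 h, 7.43, 7.34 and 7.55 in PGG 48 h and 6.74, 6.7 and 6.78 in PBS cells. All PGG arrays stood above all PBS arrays for ORC1, by 1.01 ± 0.068 (adjusted p = 3.6e-07) at 6 hours and 0.70 ± 0.068 (adjusted p = 2.4e-06) at 48 hours. The ORC2 subunit, part of the core of the same complex, had 6.91, 7.15 and 7.13 in PGG 6 h, 6.83, 6.98 and 6.91 in PGG 48 h and 8.64, 8.53 and 8.63 in PBS cells on the log2 scale. It was lower on every PGG array than on every PBS array, with differences of -1.54 ± 0.078 (adjusted p = 4.5e-08) at 6 hours and -1.69 ± 0.078 (adjusted p = 3.5e-09) at 48 hours, while the arrays of the 2 PGG times overlapped. A second ORC2 probe set also fell at both times, by 0.46 and 1.20. ORC6, the subunit needed for helicase loading, had log2 signals of 10.03, 9.89 and 9.84 in PGG 6 h, 9.99, 10.01 and 9.87 in PGG 48 h and 9.52, 9.82 and 9.86 in PBS cells. Its differences of 0.19 ± 0.093 and 0.22 ± 0.093 did not pass.

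CDT1, which escorts the MCM ring to the origin and is destroyed once S phase begins, gave log2 signals of 9.43, 9.38 and 9.46 in PGG 6 h, 9.46, 9.46 and 9.46 in PGG 48 h and 8.28, 8.35 and 8.49 in PBS cells. Every PGG array was above every PBS array for CDT1, and the 2 PGG times overlapped. The differences were 1.05 ± 0.066 (adjusted p = 2.3e-07) at 6 hours and 1.09 ± 0.066 (adjusted p = 3.8e-08) at 48 hours. A dimmer CDT1 probe set had differences of 0.70 and 0.05, which did not pass. CDC6, the loading ATPase, rose by 0.66 ± 0.068 (adjusted p = 1.2e-05) at 6 hours, and its difference of -0.04 ± 0.068 at 48 hours did not pass. A second CDC6 probe set rose at both times (0.88 and 0.25, adjusted p = 1.1e-02 at 48 hours over all probe sets).

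The 6 subunits of the MCM2-7 helicase, the ring that unwinds DNA at the fork, were higher at 6 hours for 5 genes (median 0.675) and lower at 48 hours for 4 and higher for 1 (median -0.84). All 6 were lower in PGG 48 h than in PGG 6 h, with a median of -1.51. MCM6 had log2 signals of 11.66, 11.6 and 11.68 in PGG 6 h, 9.89, 9.9 and 10.09 in PGG 48 h and 11.07, 11.08 and 10.98 in PBS cells. For MCM6, MCM4 and MCM7 the 3 groups did not overlap, with PGG 6 h highest and PGG 48 h lowest. MCM6 differed from PBS by 0.60 ± 0.07 (adjusted p = 3.0e-05) at 6 hours and -1.08 ± 0.07 (adjusted p = 6.3e-08) at 48 hours. MCM4 had log2 signals of 9.52, 9.38 and 9.47 in PGG 6 h, 7.94, 7.87 and 8.0 in PGG 48 h and 8.9, 8.84 and 8.83 in PBS cells. The differences were 0.60 ± 0.064 and -0.92 ± 0.064. MCM7 had 11.17, 11.2 and 11.23 in PGG 6 h, 9.95, 9.37 and 9.78 in PGG 48 h and 10.52, 10.41 and 10.43 in PBS cells on the same scale. The differences were 0.75 ± 0.12 and -0.75 ± 0.12, and the lowest value was that of PGG 48 h replicate 2.

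MCM5 showed the largest difference of the ring at 6 hours, with log2 signals of 9.56, 9.56 and 9.69 in PGG 6 h, 7.92, 7.77 and 8.02 in PGG 48 h and 7.93, 8.27 and 8.28 in PBS cells. The PGG 6 h arrays lay above the PBS arrays for MCM5, by 1.44 ± 0.10 (adjusted p = 4.8e-07), whereas those of PGG 48 h overlapped PBS, at -0.26 ± 0.10 (adjusted p = 5.3e-02). That difference at 48 hours passed under 8 of 18 alternative settings (-0.37 to -0.23). MCM3 had log2 signals of 10.39, 10.41 and 10.37 in PGG 6 h, 9.11, 9.3 and 9.09 in PGG 48 h and 10.23, 10.21 and 10.26 in PBS cells. Its difference at 6 hours, 0.16 ± 0.067 (adjusted p = 1.0e-01), did not pass although the arrays did not overlap, and at 48 hours it fell by 1.07 ± 0.067 (adjusted p = 5.2e-08). MCM2 rose at both times, by 0.90 ± 0.063 and 0.20 ± 0.063.

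Of the factors that activate the helicase, all 6 rose at 6 hours (median 1.02) and all 6 fell at 48 hours (median -0.715), GINS4 by only 1 of its 4 probe sets. MCM10, which binds the loaded ring when it starts to unwind, had log2 signals of 9.56, 9.55 and 9.64 in PGG 6 h, 7.01, 7.32 and 7.05 in PGG 48 h and 8.11, 8.0 and 7.94 in PBS cells. The 3 groups did not overlap, with differences from PBS of 1.57 ± 0.086 (adjusted p = 8.0e-08) at 6 hours and -0.89 ± 0.086 (adjusted p = 2.3e-06) at 48 hours. PGG 48 h was 5.49-fold lower than PGG 6 h (-2.46 ± 0.086, adjusted p = 6.3e-10). The GINS complex holds CDC45 on the ring, and its subunit GINS2 had log2 signals of 9.3, 9.37 and 9.49 in PGG 6 h, 7.31, 7.36 and 7.44 in PGG 48 h and 8.42, 8.45 and 8.34 in PBS cells. GINS2 rose by 0.98 ± 0.069 (adjusted p = 5.7e-07) at 6 hours and fell by 1.03 ± 0.069 (adjusted p = 8.9e-08) at 48 hours, without overlap of the groups. Of its dimmer probe sets, 1 did not pass at either time (0.05 and -0.017) and the other passed at 48 hours (0.25 and -0.45).

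GINS1 had log2 signals of 10.75, 10.77 and 10.77 in PGG 6 h, 8.69, 8.72 and 8.86 in PGG 48 h and 10.4, 10.46 and 10.27 in PBS cells. It rose by 0.39 ± 0.07 (adjusted p = 9.4e-04) at 6 hours and differed by -1.62 ± 0.07 (adjusted p = 2.3e-09) at 48 hours. GINS4 had log2 signals of 8.29, 8.18 and 8.2 in PGG 6 h, 6.94, 6.5 and 6.43 in PGG 48 h and 6.68, 7.46 and 7.35 in PBS cells. Its PGG 6 h arrays stood above PBS, by 1.06 ± 0.18 (adjusted p = 6.1e-04), but its PGG 48 h and PBS arrays overlapped. The difference of -0.54 ± 0.18 (adjusted p = 2.7e-02) at 48 hours lost its call when any of 4 single arrays was left out (to -0.39 without PBS replicate 2), and with only the 2 groups in the fit (adjusted p = 6.1e-02). Its other 3 probe sets did not pass at 48 hours (0.19, -0.18 and -0.03), nor did the mean of the 4 (-0.14, adjusted p = 1.3e-01). GINS3 differed by 0.23 ± 0.067 at 6 hours and -0.24 ± 0.067 at 48 hours, both past the threshold. CDC45 rose by 1.05 ± 0.071 and fell by 0.39 ± 0.071 at those times.

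Among the polymerases, primase, sliding clamp and clamp loader, all 10 genes rose at 6 hours (median 0.595), while 6 fell and 2 rose at 48 hours (median -0.42). POLA1, the catalytic subunit of the polymerase that lays the first DNA on the RNA primer, had log2 signals of 9.36, 9.42 and 9.39 in PGG 6 h, 7.4, 7.63 and 7.42 in PGG 48 h and 9.05, 9.05 and 9.05 in PBS cells. Its groups did not overlap, and its fall at 48 hours (-1.57 ± 0.07, adjusted p = 2.8e-09) was the largest of the 10. PRIM1, the primase subunit that makes the RNA primer, had 8.91, 8.91 and 8.91 in PGG 6 h, 7.6, 7.77 and 7.67 in PGG 48 h and 8.38, 8.39 and 8.34 in PBS cells on the log2 scale. The differences were 0.54 ± 0.062 and -0.69 ± 0.062. PCNA, the clamp that tethers polymerases to DNA, had log2 signals of 12.19, 12.12 and 12.14 in PGG 6 h, 10.72, 10.76 and 10.86 in PGG 48 h and 11.27, 11.28 and 11.19 in PBS cells. PCNA was thus separated between all groups, at 0.90 ± 0.062 (adjusted p = 4.8e-07) for PGG 6 h and -0.47 ± 0.062 (adjusted p = 4.2e-05) for PGG 48 h against PBS. The leading strand polymerase subunits POLE and POLE2 rose by 0.47 ± 0.06 and 0.33 ± 0.072 at 6 hours. Their differences were -0.42 ± 0.06 and -1.09 ± 0.072 at 48 hours.

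The clamp loader opens PCNA and places it on DNA. Its subunits RFC2, RFC3, RFC4 and RFC5 all rose at 6 hours, and at 48 hours 1 rose and 1 fell. Its subunit RFC1, counted below among other fork enzymes, fell at 6 hours (-0.51 ± 0.065, adjusted p = 6.3e-05). RFC1 did not pass at 48 hours (-0.063 ± 0.065). At 6 hours RFC5 rose by 1.13 ± 0.065, RFC2 by 0.76 ± 0.076, RFC3 by 0.65 ± 0.075 and RFC4 by 0.38 ± 0.069. At 48 hours RFC2 rose (0.42 ± 0.076), RFC3 fell (-0.43 ± 0.075), and RFC4 (-0.093 ± 0.069) and RFC5 (-0.093 ± 0.065) did not pass. FEN1, the nuclease that trims Okazaki fragments, rose by 1.11 ± 0.085 at 6 hours and 0.54 ± 0.085 at 48 hours.

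The 4 genes of deoxynucleotide supply all rose at 6 hours (median 0.895), and at 48 hours 2 fell and 1 rose (median -0.38). RRM2 had log2 signals of 10.96, 11.02 and 11.02 in PGG 6 h, 9.46, 9.49 and 9.43 in PGG 48 h and 9.01, 8.72 and 8.58 in PBS cells. All groups were separated for RRM2, and PGG 48 h stood 1.61-fold above PBS (0.69 ± 0.093, adjusted p = 4.6e-05). The other RRM2 probe set gave the same direction at 6 hours (1.74, adjusted p = 4.4e-08 over all probe sets) and the opposite call at 48 hours (-0.72, adjusted p = 3.1e-06). The direction at 48 hours thus depended on the probe set. RRM1, the large subunit of the same enzyme, had log2 signals of 11.02, 11.0 and 10.96 in PGG 6 h, 9.84, 9.9 and 9.91 in PGG 48 h and 10.38, 10.53 and 10.46 in PBS cells. The differences were 0.54 ± 0.062 and -0.57 ± 0.062. TYMS, which makes thymidylate, had 12.07, 12.09 and 12.14 in PGG 6 h, 10.8, 10.95 and 10.77 in PGG 48 h and 11.52, 11.49 and 11.5 in PBS cells on the log2 scale. The differences were 0.60 ± 0.064 and -0.66 ± 0.064. Neither gene's groups overlapped. TK1, the salvage kinase for thymidine, rose by 1.19 ± 0.21 (adjusted p = 7.7e-04) at 6 hours. Its difference of -0.19 ± 0.21 (adjusted p = 5.0e-01) at 48 hours did not pass, with PGG 48 h replicate 2 at 7.36 and the others at 8.47 and 8.24.

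**Figure D4:**
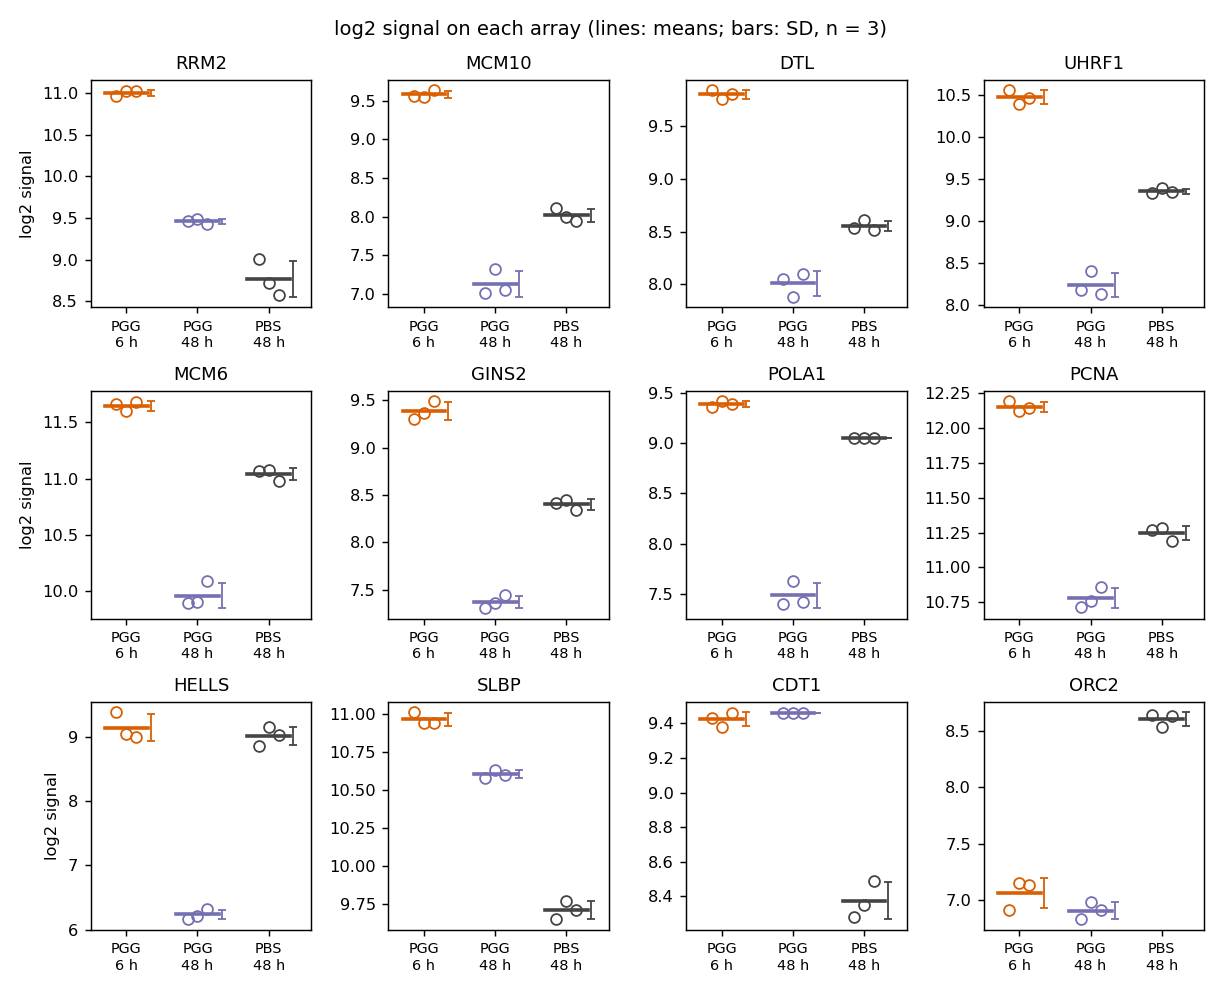
Log2 signal on each array for 12 genes, with a line at the mean and bars of 1 SD (n = 3) for PGG 6 h, PGG 48 h and PBS, and a separate y axis for each gene that does not start at 0. RRM2, MCM10, DTL, UHRF1, MCM6, GINS2, POLA1, PCNA and SLBP show 3 separated groups, the 2 PGG times overlap for CDT1 and ORC2, and PGG 6 h overlaps PBS for HELLS.

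Of 5 genes of chromatin assembly and histone mRNA, 4 rose at 6 hours (median 0.76), and 4 fell and 1 rose at 48 hours (median -0.38). HELLS, a remodeller needed for DNA methylation in repeats, had log2 signals of 9.38, 9.04 and 9.0 in PGG 6 h, 6.17, 6.22 and 6.32 in PGG 48 h and 8.86, 9.15 and 9.03 in PBS cells. PGG 6 h and PBS overlapped for HELLS (0.13 ± 0.11, adjusted p = 4.2e-01), and PGG 48 h lay below both, 7.48-fold under PGG 6 h. Of its 5 probe sets, 4 fell at 48 hours (-2.78 to -1.81). Among these 4, at 6 hours, those at -0.42 and -0.53 fell (adjusted p = 3.9e-02 and 2.4e-02 over all probe sets). Those at -0.057 and 0.13 did not pass. The remaining probe set went the opposite way, at 4.55 at 6 hours and 3.38 at 48 hours. That probe set averaged 8.57 in PGG 6 h, 7.4 in PGG 48 h and 4.02 in PBS on the log2 scale. Whether it measures the HELLS transcript was not tested. UHRF1, which reads hemimethylated DNA behind the fork, had log2 signals of 10.56, 10.4 and 10.47 in PGG 6 h, 8.18, 8.41 and 8.14 in PGG 48 h and 9.33, 9.39 and 9.35 in PBS cells. Its groups did not overlap, with a rise of 1.12 ± 0.079 (adjusted p = 5.5e-07) at 6 hours and a difference of -1.11 ± 0.079 (adjusted p = 1.4e-07) at 48 hours. SLBP, which binds the stem-loop of replication-dependent histone mRNAs, had 11.01, 10.94 and 10.94 in PGG 6 h, 10.58, 10.63 and 10.6 in PGG 48 h and 9.65, 9.77 and 9.71 in PBS cells on the log2 scale. It rose at both times, by 1.25 ± 0.059 (adjusted p = 2.8e-08) and 0.89 ± 0.059 (adjusted p = 8.3e-08). CHAF1A and CHAF1B, subunits of the assembly factor that places histones on new DNA, rose by 0.64 ± 0.067 and 0.76 ± 0.072 at 6 hours and fell by 0.38 ± 0.067 and 0.30 ± 0.072 at 48 hours.

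**Figure D5:**
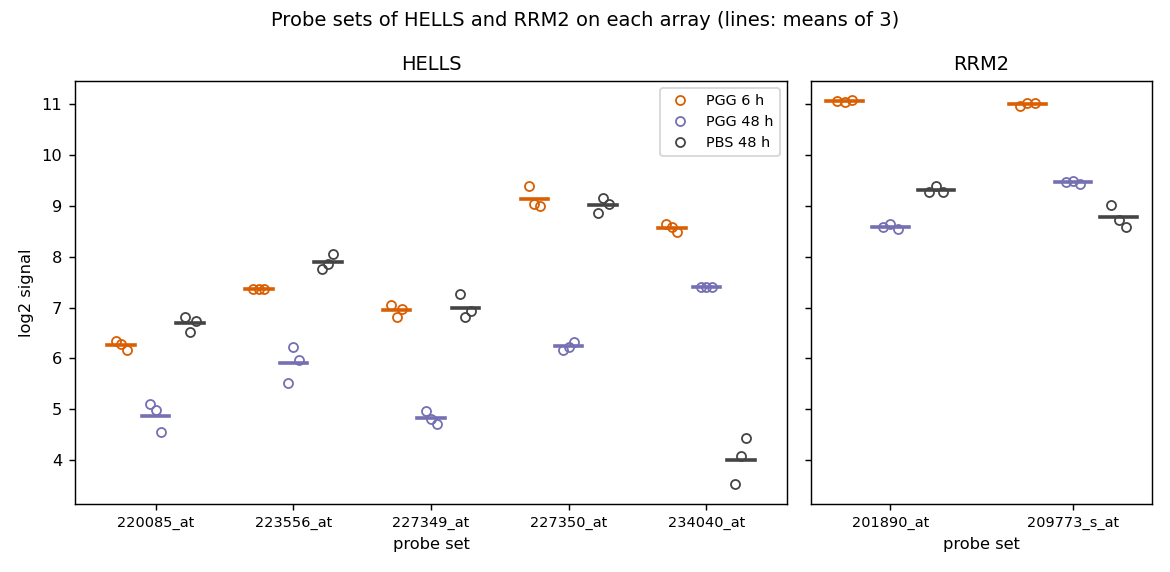
Log2 signal on each array for the 5 probe sets of HELLS and the 2 of RRM2, with points for PGG 6 h, PGG 48 h and PBS and lines at the means of 3 arrays. The HELLS probe set on the far right is lowest in PBS, at a mean of 4.02, whereas the other 4 are lowest in PGG 48 h, and the RRM2 probe sets put PGG 48 h on opposite sides of PBS.

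The repair and fork surveillance genes were DTL, UNG and BRCA1, of which 1 rose at 6 hours and all 3 fell at 48 hours (medians 0.21 and -0.61). DTL, the receptor of the ubiquitin ligase that removes CDT1 from S phase chromatin, had log2 signals of 9.84, 9.76 and 9.81 in PGG 6 h, 8.05, 7.88 and 8.1 in PGG 48 h and 8.54, 8.61 and 8.52 in PBS cells. The 3 groups were separated, at 1.25 ± 0.07 (adjusted p = 9.1e-08) and -0.55 ± 0.07 (adjusted p = 2.8e-05) from PBS. A second DTL probe set rose at 6 hours (1.60) and did not pass at 48 hours (0.29). BRCA1, which protects stalled forks and acts in recombination, had log2 signals of 7.92, 7.85 and 7.95 in PGG 6 h, 7.29, 7.39 and 7.24 in PGG 48 h and 7.85, 8.05 and 7.86 in PBS cells. They overlapped between PGG 6 h and PBS (-0.013 ± 0.073) and were lower in PGG 48 h (-0.61 ± 0.073, adjusted p = 1.5e-05). UNG, which removes uracil from DNA, had differences of 0.21 ± 0.086, which did not pass, and -1.15 ± 0.086 (adjusted p = 2.4e-07).

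E2F1 and E2F2, activating transcription factors of the G1/S boundary, lay on opposite sides of PBS at 48 hours. E2F1 had log2 signals of 7.98, 7.99 and 7.96 in PGG 6 h, 8.12, 8.15 and 8.12 in PGG 48 h and 7.4, 7.86 and 7.74 in PBS cells, with PBS replicate 1 the lowest. It passed at 6 hours (0.31 ± 0.098, adjusted p = 2.8e-02) but not without PBS replicate 1, when the difference was 0.18, nor without any 1 PGG 6 h array. E2F1 rose at 48 hours (0.46 ± 0.098, adjusted p = 1.6e-03). A second E2F1 probe set rose at both times, by 0.48 and 0.41. E2F2 had log2 signals of 8.45, 8.59 and 8.6 in PGG 6 h, 7.17, 7.41 and 7.25 in PGG 48 h and 7.82, 7.84 and 8.01 in PBS cells. Its groups did not overlap, with 0.66 ± 0.082 (adjusted p = 5.3e-05) and -0.61 ± 0.082 (adjusted p = 4.1e-05).

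Counted over all 82 probe sets of the 41 genes, 61 rose and 4 fell at 6 hours, where 12.2% of all probe sets rose and 12.5% fell. At 48 hours 13 rose and 47 fell, where 18.8% and 20.2% did. Between PGG 48 h and PGG 6 h 0 rose and 70 fell, where 18% and 18.4% did. Of the 25 genes with several probe sets, HELLS had probe sets called in opposite directions at 6 hours, RRM2 and HELLS at 48 hours, and none between the 2 PGG times. Probe sets of a gene differed in whether they passed, or in direction, for 9 of the 25 at 6 hours (CDT1, MCM4, GINS2, GINS3, RFC5, TYMS, CHAF1A, HELLS and E2F2). At 48 hours they did so for 13, which were CDC6, CDT1, MCM4, GINS2, GINS4, RFC3, RRM1, RRM2, TYMS, CHAF1A, HELLS, DTL and E2F2. Between the PGG times the 7 were ORC2, MCM4, GINS2, RFC5, TYMS, CHAF1A and E2F2.

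Of 82 further genes of the pathway 77 were analysed. Of these 43 rose and 15 fell at 6 hours (median 0.27), and 17 rose and 45 fell at 48 hours (median -0.40). In PGG 48 h against PGG 6 h 10 rose and 56 fell (median -0.72). Over all genes 17.2% rose and 16.9% fell at 6 hours, 23.9% and 24.3% at 48 hours, and 23.6% and 23.4% between the PGG times. Among 12 other origin and initiation factors, 7 rose and 3 fell at 6 hours, and 8 rose and 3 fell at 48 hours. The falls made up 25% of that list at 48 hours, near the share over all genes. Other counts were also near the shares over all genes, such as the rises at 48 hours among the 77 genes (22.1%) and among the 20 fork enzymes below (20%). RECQL4, a helicase that acts in origin firing, rose by 0.84 ± 0.073 and 0.48 ± 0.073. The CDT1 inhibitor GMNN had differences of 0.63 ± 0.061 and -0.16 ± 0.061. The origin-firing kinase CDC7 fell, with -0.92 ± 0.074 at 6 hours and -2.23 ± 0.074 at 48 hours. The ORC5 subunit fell at both times, as ORC2 did, with -0.64 ± 0.077 and -1.51 ± 0.077. Other subunits of that complex differed. ORC3 rose at both times (0.39 ± 0.0725 and 0.56 ± 0.0725). ORC4 fell at 6 hours (-0.24 ± 0.059) and rose at 48 hours (0.39 ± 0.059). Among 20 other fork enzymes, 11 rose and 3 fell at 6 hours, and 4 rose and 10 fell at 48 hours. RPA1, which coats single-stranded DNA, rose by 0.95 ± 0.061 at 6 hours and did not pass at 48 hours (-0.043 ± 0.061). LIG1, the ligase of Okazaki fragments, rose at both times (0.87 ± 0.083 and 0.50 ± 0.083). RNASEH2B, a subunit of an enzyme that removes ribonucleotides from DNA, fell at both (-0.63 ± 0.082 and -1.86 ± 0.082).

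Of 10 fork protection and checkpoint genes, 5 rose and 4 fell at 6 hours, and 3 rose and 6 fell at 48 hours. TIPIN, of the fork protection complex, had differences of 0.72 ± 0.069 and -0.88 ± 0.069. The checkpoint kinase ATR fell at both times (-0.34 ± 0.081 and -1.54 ± 0.081). RAD9A, of the checkpoint clamp, rose (0.31 ± 0.059 and 0.88 ± 0.059). Of 7 other deoxynucleotide enzymes, 4 rose and 0 fell at 6 hours, and 1 rose and 6 fell at 48 hours. The gene that rose at 48 hours was RRM2B, the p53-inducible subunit of ribonucleotide reductase, with 0.32 ± 0.081 and 0.90 ± 0.081. Of 11 other chromatin and repair genes of S phase, 7 rose and 0 fell at 6 hours, and 0 rose and 9 fell at 48 hours. The largest falls of that list were in CDCA7, the partner of HELLS (0.64 ± 0.074 at 6 hours, -2.41 ± 0.074 at 48 hours), and the histone chaperone ASF1A (0.023 ± 0.088, which did not pass, and -2.22 ± 0.088). Of 17 genes of the E2F family and the G1/S switch, 9 rose and 5 fell at 6 hours, and 1 rose and 11 fell at 48 hours. Cyclin E2 (CCNE2) rose at both times (2.26 ± 0.10, adjusted p = 2.3e-08, and 1.74 ± 0.10, adjusted p = 3.4e-08). Cyclin E1 (CCNE1) rose at 6 hours (1.17 ± 0.11) and did not pass at 48 hours (-0.16 ± 0.11). The E2F repressors E2F7 and E2F8 rose by 1.80 ± 0.12 and 1.59 ± 0.088 at 6 hours and did not pass at 48 hours (0.18 ± 0.12 and -0.20 ± 0.088). E2F5, a repressor E2F, fell at both times (-1.23 ± 0.072 and -1.68 ± 0.072). SKP2, which targets CDK inhibitors for destruction, had 0.99 ± 0.072 and -0.75 ± 0.072.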

How the data were processed

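Gene expression was measured in Huh7 cells on 9 Affymetrix arrays, 3 per group, grouped by the sample titles. The authors applied RMA with Affymetrix Expression Console, of a version not given in the sources used here. They deposited log2 values with 2 decimals, 1 per probe set, which were used without further scaling. Of 54675 probe sets 62 were controls, and of the remaining 54613, 41091 carried 1 gene symbol in the platform annotation, 1801 several and 11721 none. All 41 symbols were found by Entrez number in RefSeq, and 0 changed. From the deposited values, 1 mean per group was fitted with limma 3.58.1 in R 4.3.3 (lmFit and eBayes) to the highest-mean probe set of each of 19775 genes, or to all 54613 probe sets, with Benjamini-Hochberg adjustment over all of them and calls at an adjusted p under 0.05. The spread was shared over the 9 arrays. The steps were tested on simulated data. Array data hold no counts, and each group mean rests on 3 arrays.

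The genes and lists were chosen with earlier results of these data known. Per-array values are given for the 4 largest differences in each direction of each comparison, for genes higher at 6 hours and lower at 48 hours by at least 0.5, and for E2F1, PCNA and ORC2. Of the further pathway lists, up to 3 highest and 3 lowest called genes per comparison were eligible to be named, and CCNE1 was added beside CCNE2 after its values were seen. Alternatives covered the fit, the test, the choice of probe set, a filter on dim genes, scaling, single arrays left out and the cut-offs of the methods. The study's other experiments were not analysed here.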

Additional observations from a re-analysis of the deposited data

Results flagged for a closer look

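For 37 genes the differences from PBS at the 2 PGG times were unequal by limma's test of PGG 48 h against PGG 6 h, in which the PBS arrays cancel, and 23.4% of all genes were lower by the same test. With no PBS sample of 6 hours analysed, exposure to PGG and time in culture cannot be told apart in it. The log2 differences were -0.31 for ORC1 and -0.70 for CDC6 among the licensing factors. In the MCM ring they were -0.70 for MCM2, -1.22 for MCM3, -1.52 for MCM4, -1.70 for MCM5, -1.69 for MCM6 and -1.50 for MCM7. Among the helicase activators they were -2.46 for MCM10, -1.44 for CDC45, -2.01 for GINS1, -2.02 for GINS2, -0.46 for GINS3 and -1.60 for GINS4.

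At the fork the differences were -1.91 for POLA1, -1.23 for PRIM1, -0.89 for POLE, -1.42 for POLE2, -1.37 for PCNA, -0.34 for RFC2, -1.08 for RFC3, -0.47 for RFC4, -1.22 for RFC5 and -0.57 for FEN1. In deoxynucleotide supply they were -1.11 for RRM1, -1.54 for RRM2, -1.26 for TYMS and -1.39 for TK1. Among the chromatin and histone genes they were -1.02 for CHAF1A, -1.06 for CHAF1B, -2.90 for HELLS, -2.23 for UHRF1 and -0.36 for SLBP. The remaining values were -1.36 for UNG, -1.79 for DTL, -0.60 for BRCA1 and -1.27 for E2F2. With 3 arrays a group, outlying single arrays were not tested for.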

How the results depend on the processing

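The direction of the counts held under the alternatives, at 6 hours only narrowly with the cut-offs of the methods. With those cut-offs (adjusted p under 0.005, log2 difference beyond 1.5), limma gave 2 genes higher and 1 lower at 6 hours. Over all genes the shares were 0.349% and 0.541%. At 48 hours 0 were higher and 4 lower (3.08% and 2.12% of all genes). In PGG 48 h against PGG 6 h 12 were lower (1.55% of all genes). The methods' t-test at those cut-offs gave 2, 1, 0, 4 and 12. Without probe sets named _x_at or _s_at, which left 29 of the 41 genes, 3 rose at 48 hours. With only the 2 groups compared in the fit, or with the methods' t-test, 1 gene (E2F1) rose in PGG 48 h against PGG 6 h.

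Leaving out single arrays gave 33 to 36 genes higher and 1 lower at 6 hours, 7 to 9 higher and 26 to 28 lower at 48 hours, and 0 higher and 37 to 38 lower in PGG 48 h against PGG 6 h. With the replicate block, 35 rose and 1 fell at 6 hours, 8 rose and 28 fell at 48 hours (MCM5 passed, with an adjusted p of 3.8e-02), and 0 rose and 37 fell between the PGG times. The replicate numbers are not stated to pair the arrays. Deviations of same-numbered arrays of different groups correlated at -0.089 to 0.16, with 3 of 9 pairs over 0.1. Those of differently numbered arrays correlated at -0.18 to 0.11, with 1 of 18 pairs over 0.1. The deviations were taken from means of 3 arrays, so these values cannot decide whether the arrays were paired. Medians over the genes ranged from 0.63 to 0.70 at 6 hours, -0.54 to -0.33 at 48 hours and -1.28 to -0.97 between the PGG times. The -0.54 came from the setting without _x_at or _s_at probe sets, which left 29 of the 41 genes.

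Of 1383 values of single genes under alternatives, 1346 kept their direction and side of the threshold, 18 passed it newly, 17 lost it and 2 turned. Both that turned were RRM2 at 48 hours, at -0.017 (adjusted p = 8.5e-01) with the mean of its probe sets and -0.72 (adjusted p = 9.0e-07) without _s_at probe sets. GINS2 lost its calls without _s_at probe sets, DTL at 48 hours with the mean of its probe sets (-0.13), and HELLS passed at 6 hours with that mean (0.73). Scaling to the 75th percentile gave 3831 genes higher and 2983 lower at 6 hours over all genes, against 3394 and 3335 as deposited. No measure of background was analysed. Each group mean rests on 3 arrays, with the spread shared over the 9 arrays and, through eBayes, drawing on all 19775 genes.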

Other observations

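Mitosis genes were set beside the replication genes. Of 37 genes, all measured and sharing TOP2A with the list of fork enzymes, 15 rose and 6 fell at 6 hours (median 0.13), 4 rose and 27 fell at 48 hours (median -0.51), and 2 rose and 31 fell in PGG 48 h against PGG 6 h (median -0.81). Over all genes 17.2% rose and 16.9% fell at 6 hours, 23.9% and 24.3% at 48 hours, and 23.6% and 23.4% between the PGG times, so the share of mitosis genes that fell at 6 hours (16.2%) was near that of all genes. No test of the difference between the lists was made, and the genes named here were chosen after their values were seen. At 6 hours BIRC5, an inhibitor of apoptosis that acts at the centromere, rose by 0.88 ± 0.064, and the kinetochore motor CENPE and the spindle checkpoint kinase BUB1B fell, with -1.53 ± 0.067 and -1.14 ± 0.099. At 48 hours CDC20, which turns on the ubiquitin ligase of anaphase, differed by -2.18 ± 0.075 and the spindle protein ASPM by -2.08 ± 0.074, while the spindle checkpoint kinase TTK rose by 0.84 ± 0.081. TTK was also higher in PGG 48 h than in PGG 6 h, by 1.22 ± 0.081, and cyclin B1 (CCNB1), which drives entry into mitosis, was lower, at -2.05 ± 0.075.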
